A study of Mus musculus with 2 samples.

Results

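The cells described here were Shox2-positive cardiomyocytes with little Myl2 from mouse hearts at stage E10.5, 95 of 10039 single-cell barcodes that passed the filters. They were chosen by their own transcript counts. A barcode needed at least 3000 unique molecular identifiers (UMIs, 1 per captured RNA molecule) and 500 genes, at most 20% mitochondrial UMIs and under 20% hemoglobin UMIs. It then needed at least 5 UMIs of Ttn and under 60 of Myl2 per 10000, and at least 1 UMI of Shox2. In all, 69 members came from the library labelled knockout (of 4800 barcodes) and 26 from the library labelled wildtype (of 5239).

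There were 2 libraries, with 4 pooled hearts in each. The hearts of the library labelled knockout were BubR1fl/fl; Nkx2.5-cre (het), and those of the library labelled wildtype were BubR1+/+; Nkx2.5-cre (het), so both carried 1 copy of the Cre allele. BubR1, the product of Bub1b, is a kinase of the spindle assembly checkpoint, and the study asked how its loss alters gene expression in cells of the embryonic heart. Nkx2.5-cre acts in cardiac progenitors and their descendants. In mice, part of the sinus venosus muscle is known to come from progenitors without Nkx2-5, and the labels do not say whether the floxed alleles were recombined in Shox2-positive cells. With 1 library per group no test was possible and no p-value is given. Genotype and library cannot be told apart.

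The sinoatrial node is the pacemaker of the heart and forms in the muscle of the sinus venosus, at the inflow of the right atrium. The transcription factor Shox2 keeps these cells from becoming working atrial muscle by restraining Nkx2-5, while Tbx3 represses chamber genes, Tbx18 builds the sinus horn muscle and Isl1 acts with Shox2 on pacemaker genes. Hcn4 forms hyperpolarisation-activated channels of the pacemaker current, and node cells carry little Nppa and few fast-conducting connexins.

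Shox2 lies on mouse chromosome 3 (mm10, 66971727 to 66981771, minus strand), Hcn4 on chromosome 9 (58823412 to 58863175, plus strand) and Vsnl1, which encodes a neuronal calcium sensor, on chromosome 12 (11325242 to 11436613, minus strand). Their promoters are shown because levels of Hcn4 and Vsnl1 were higher in the cells selected on Shox2 in both libraries. Each runs from 250 bases before to 50 bases after a RefSeq start on GRCm38.p6, at chr3:66981722-66982021 (minus), chr9:58822699-58822998 (plus) and chr12:11436529-11436828 (minus). Capitals mark a match to 1 of 4 motifs searched on both strands. The motif of GATA factors was taken as AGATAA. For T-box factors, Tbx3 and Tbx5 among them, the letters AGGTGT were used. Homeobox factors such as Shox2 were given TAATTA, and Nkx2-5 was given TNAAGTG.
Shox2: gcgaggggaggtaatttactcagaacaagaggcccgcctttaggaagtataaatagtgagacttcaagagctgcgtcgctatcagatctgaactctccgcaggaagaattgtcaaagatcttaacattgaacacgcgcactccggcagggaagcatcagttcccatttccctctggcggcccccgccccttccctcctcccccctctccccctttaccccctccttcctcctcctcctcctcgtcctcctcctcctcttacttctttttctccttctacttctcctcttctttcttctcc
Hcn4: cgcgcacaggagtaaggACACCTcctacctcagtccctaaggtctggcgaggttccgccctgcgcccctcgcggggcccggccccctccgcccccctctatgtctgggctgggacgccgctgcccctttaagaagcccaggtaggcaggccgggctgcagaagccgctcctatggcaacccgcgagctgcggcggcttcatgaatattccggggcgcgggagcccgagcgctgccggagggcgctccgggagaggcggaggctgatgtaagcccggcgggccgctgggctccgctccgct
Vsnl1: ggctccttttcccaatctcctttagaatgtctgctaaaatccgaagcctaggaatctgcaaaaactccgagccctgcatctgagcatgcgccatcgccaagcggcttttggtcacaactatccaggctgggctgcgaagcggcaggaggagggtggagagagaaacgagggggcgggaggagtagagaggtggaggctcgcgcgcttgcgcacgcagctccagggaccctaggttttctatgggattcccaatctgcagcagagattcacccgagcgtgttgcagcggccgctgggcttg
The single match was the T-box motif in the Hcn4 promoter, read on the minus strand, and 13.7% of all 32851 promoters of this length held that motif. The RefSeq start of Hcn4 lies upstream of the GENCODE gene start given above. GC content was 53.3% for Shox2, 71.7% for Hcn4 and 58.7% for Vsnl1, against a median of 52.7% over all promoters. Among the 12 genes with the highest levels in Shox2-positive relative to Shox2-negative cells, 6 had a promoter in the table. Of their 7 promoters, 0 held the GATA, the T-box or the Nkx2-5 motif and 1 held the homeobox motif. The 12 lowest genes had 13 promoters for 10 genes, of which 2 held the GATA and 3 the Nkx2-5 motif. Over all promoters the shares were 11.2% for GATA, 5.29% for homeobox and 11.5% for Nkx2-5.

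Before filtering, the libraries summed to 130039314 UMIs (labelled knockout) and 122834180 UMIs (labelled wildtype). Members had a median of 15667 UMIs (3458 to 62137) in the library labelled knockout and 8750 (4534 to 32279) in the library labelled wildtype, and summed to 1477869 and 326108 UMIs. The deepest member gave 4.20% of the sum labelled knockout and 9.90% of the sum labelled wildtype. The libraries shared 4 kept barcodes, none of them a member. Among members, 18 of 69 labelled knockout (26.1%) and 5 of 26 labelled wildtype (19.2%) had a high doublet score. So had 76 of 304 and 46 of 230 Shox2-negative Myl2-low cardiomyocytes. Such scores were rarer in cardiomyocytes above the Myl2 limit, at 1.72% labelled knockout (5 of 291) and 8.79% labelled wildtype (37 of 421). The 95% interval for members labelled wildtype, 6.55 to 39.4%, held that 8.79%. Barcodes below the Ttn minimum had 3.09% labelled knockout and 5.44% labelled wildtype. Hemoglobin passed 1% of UMIs in 5 members labelled knockout and 2 labelled wildtype, and endothelial markers summed to 296 and 389 CPM. Of 10 macrophage markers, 6 were at 0 in each library.

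The values that chose the members are given as a description. Ttn, the giant spring protein of the sarcomere, ranged from 5.01 to 91.2 UMIs per 10000 (median 19.4) in members labelled knockout and from 7.05 to 73.3 (median 30.6) in members labelled wildtype. The highest Shox2-positive barcode below the Ttn minimum stood at 4.82 in the library labelled knockout and 4.70 in the library labelled wildtype. Myl2, the ventricular regulatory light chain, reached 52.99 per 10000 in members labelled knockout and 37.6 in members labelled wildtype, and was at 0 in 26 and 15 of them. The nearest Shox2-positive barcodes above the Myl2 limit stood at 62.6 in the library labelled knockout, where 4 such barcodes were left out, and at 75.04 in the library labelled wildtype, where 2 were. Shox2 had a median of 4 UMIs (at most 44) in members labelled knockout and of 2 (at most 13) in members labelled wildtype. Exactly 1 Shox2 UMI was found in 19 of 69 members labelled knockout and in 10 of 26 labelled wildtype, and 5 or more in 34 and 7. Members that rest on 1 UMI thus made up 27.5% and 38.5%.

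**Figure D1:**
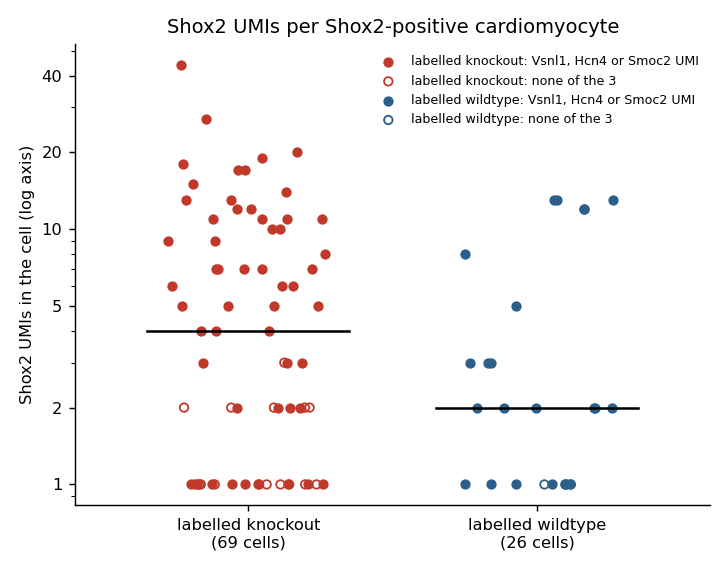
Shox2 UMIs in each member on a log axis, with 1 point per cell, filled where the cell also held a UMI of Vsnl1, Hcn4 or Smoc2 and open where it held none of the 3; the black line is the median (4 labelled knockout, 2 labelled wildtype). Open points, 15 labelled knockout and 2 labelled wildtype, all lie at 3 or fewer Shox2 UMIs.

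Shox2-positive cells made up 18.5% of Myl2-low cardiomyocytes in the library labelled knockout (69 of 373, 95% interval 14.7 to 22.8%) and 10.2% in the library labelled wildtype (26 of 256, 6.74 to 14.5%). Of all cardiomyocytes with Ttn they were 10.4% (69 of 664) and 3.84% (26 of 677), and of all kept barcodes 1.44% and 0.496%. Intervals of shares are exact Clopper-Pearson, those of levels exact Poisson and those of ratios exact conditional binomial. All cover counting error only, not the spread between cells or hearts. The depth gap bears on these shares, because a deeper cell more often shows a Shox2 UMI. After each cell was thinned to 3000 UMIs and the rule applied again, the share was 10.1% (38 of 377, 7.23 to 13.6%) in the library labelled knockout and 5.88% (16 of 272, 3.40 to 9.38%) in the library labelled wildtype, and these intervals overlap. Without members holding 3 or more epicardial markers, an alternative chosen after seeing the data, the share was 11.5% labelled knockout and 8.98% labelled wildtype. How the atria and inflow were dissected in each pool is not stated, and its part in the shares was not tested.

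A Shox2 UMI was far rarer in cells that should lack it. It was found in 1.09% of endothelial barcodes labelled knockout (8 of 736, median 12625.5 UMIs) and 0.757% labelled wildtype (9 of 1189, median 8157 UMIs). In Myl2-high cardiomyocytes it was found in 1.37% (4 of 291) and 0.475% (2 of 421). The share among Myl2-low cardiomyocytes was above this background in both libraries.

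The sinoatrial label was checked against Ttn, Shox2, Vsnl1, Hcn4 and Smoc2. Ttn and Shox2 are present in every member by the rule, and at least 1 of the other 3 was detected in 54 of 69 members labelled knockout (78.3%) and 24 of 26 labelled wildtype (92.3%). Either Vsnl1 or Hcn4 was present in 52 of 69 members labelled knockout (75.4%) and 22 of 26 labelled wildtype (84.6%). With every cell thinned to 3000 UMIs, Vsnl1 was detected in 58.0% of Shox2-positive against 5.92% of Shox2-negative cells labelled knockout, and in 61.5% against 7.39% labelled wildtype. Unthinned, members had Vsnl1 in 69.6% of cells labelled knockout and 76.9% labelled wildtype. Thinned Hcn4 was in 20.3% against 1.32% labelled knockout and 19.2% against 0.870% labelled wildtype. Thinned Smoc2 was in 13.0% against 0.329% labelled knockout. In the library labelled wildtype it was in 7.69% (0.946 to 25.1%) against 3.04% (1.23 to 6.17%), and these intervals overlap.

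Levels in Shox2-positive cells were then set against Shox2-negative Myl2-low cardiomyocytes of the same library (304 cells labelled knockout, 230 labelled wildtype). UMIs were summed over each class and scaled to CPM (UMIs of the gene per 1000000 UMIs of the class). Shox2-positive cells held more Vsnl1, Hcn4, Smoc2, Tbx3 and Isl1 transcript and less of most sarcomere genes, while the lists of pacemaker channels and of atrial markers held genes on both sides of 0. Since the rule split the same cells by Shox2, these ratios are a description. Among 10583 genes with at least 20 UMIs in each library, 94 were at least 2-fold higher in both libraries (0.888%) and 49 at least 2-fold lower in both (0.463%). Shox2, Ttn and Myl2 were left out of these counts.

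Vsnl1 stood at 315 CPM in Shox2-positive and 20.9 CPM in Shox2-negative cells labelled knockout, a log2 ratio of 3.92 (3.65 to 4.19). In the library labelled wildtype it stood at 270 and 31.3 CPM, a log2 ratio of 3.11 (2.68 to 3.54). Hcn4 reached 50.7 against 6.55 CPM labelled knockout (2.95, 2.41 to 3.51) and 46.0 against 5.21 CPM labelled wildtype (3.14, 2.04 to 4.23). The intervals of the libraries overlapped for Hcn4 and did not for Vsnl1. Smoc2, a secreted calcium-binding matrix protein, had log2 ratios of 4.78 labelled knockout and 3.22 labelled wildtype, from 111 and 26 UMIs in members.

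The 12 highest genes also held Shisa6, known in neurons as an auxiliary subunit of glutamate receptors (3.72 labelled knockout, 3.39 labelled wildtype), and Cacna2d2, an auxiliary calcium channel subunit (1.51 and 1.90). Plcb1, a phospholipase C, had 1.97 and 2.07. Igfbp5, which binds insulin-like growth factors, was the most abundant of them, at 1372 CPM in Shox2-positive and 386 CPM in Shox2-negative cells labelled knockout, and 1018 and 375 CPM labelled wildtype. Also among the 12 were the adhesion proteins Tenm3 (1.47 and 2.08) and Flrt3 (1.28 and 1.51), the ubiquitin ligase Fbxo32 (2.12 and 1.47), Trabd2b (1.48 and 1.23) and Csmd1. Csmd1 rested on few cells, since 1 cell gave 77.8% of its UMIs in members labelled wildtype.

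Of 9 measured pacemaker transcription and signalling factors, 3 were at least 2-fold higher in both libraries, 7 lay above 0 in both and none lay below 0 in both. Tbx3 had log2 ratios of 1.28 labelled knockout and 2.67 labelled wildtype, Isl1 1.22 and 2.74, and the ligand Bmp4 1.42 and 1.19. Gata4, Gata6, Tbx5 and Hand2 lay above 0 in both but under 2-fold. Of 9 measured pacemaker channels and exchangers, 3 were 2-fold higher in both, Hcn4 and Cacna2d2 among them, while 4 lay above 0 and 4 below 0 in both libraries. The median of this list was -0.14 labelled knockout and 1.14 labelled wildtype. The L-type channel gene Cacna1d was 0.64 higher labelled knockout and 1.88 higher labelled wildtype on the log2 scale, and the sodium-calcium exchanger gene Slc8a1 was at -0.14 in both. Of 14 measured genes listed as enriched in the node, 5 were 2-fold higher in both libraries, namely Igfbp5, Hcn4, Vsnl1, Rgs6 and Smoc2. Rgs6, which shortens signalling from muscarinic receptors, had 1.45 and 1.01.

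The 12 lowest genes held several sarcomere genes. Skeletal alpha-actin Acta1 had log2 ratios of -2.13 labelled knockout and -2.49 labelled wildtype. The natriuretic peptide gene Nppb had -3.54 and -1.56, with all 11 of its UMIs in members labelled wildtype from 1 cell. Beta-myosin heavy chain Myh7 (-1.70 and -1.31), the light chain Myl3 (-1.38 and -1.26), the calcium pump inhibitor Pln (-1.46 and -1.15), the homeodomain factor gene Hopx (-1.21 and -1.22), the calcium release channel Ryr3 (-1.05 and -1.08) and the kinase gene Alpk2 (-1.03 and -1.21) were each at least 2-fold lower in both. Myl3, Hopx, Pln and Alpk2 were under 2-fold with a mitochondrial limit of 10%. Myl3, Hopx, Ryr3 and Alpk2 were under it with at least 20 Ttn UMIs per 10000, and also without members holding 3 or more epicardial markers. Hspb7, Pdlim1, Rragd and Mtus2 stood on the list but were under 2-fold in at least 1 library. Of 26 sarcomere genes, 3 were 2-fold lower and 23 lay below 0 in both libraries, with medians of -0.37 and -0.33, against 0.04 for all genes in each library. Of 10 atrial markers, 6 lay above 0 and 3 below 0 in both (medians 0.52 and 0.28), and of 12 working-muscle genes 3 lay above 0, 7 below 0 and 1, Nppb, was 2-fold lower. Of 30 genes of oxidative phosphorylation, 21 lay below 0 in both. All 10 measured cardiomyocyte markers lay below 0 in both libraries, with medians of -0.36 labelled knockout and -0.32 labelled wildtype and none 2-fold lower. Of these, Ryr2 was at 975 against 1019 CPM labelled knockout and 987 against 1075 CPM labelled wildtype.

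**Figure D2:**
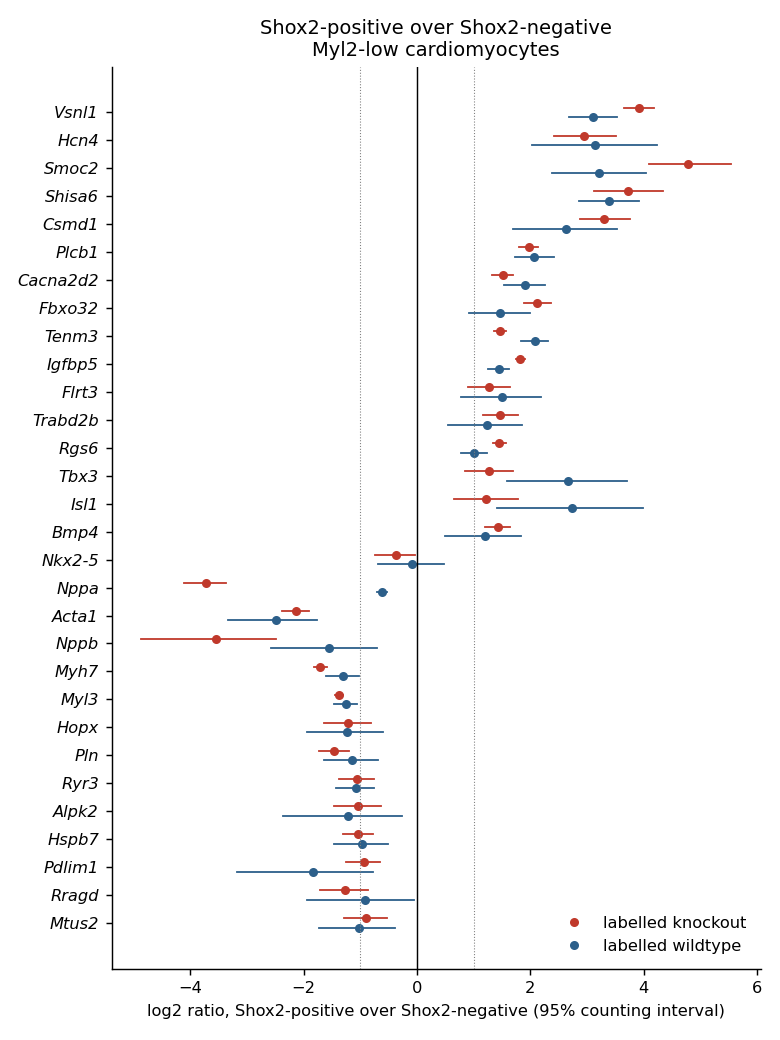
Log2 ratio of Shox2-positive over Shox2-negative Myl2-low cardiomyocytes for named genes, with 95% counting intervals, labelled knockout above labelled wildtype; dotted lines mark 2-fold. Vsnl1 lies at 3.92 and 3.11 and Myl3 at -1.38 and -1.26.

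Nkx2-5, the factor that Shox2 restrains, differed by under 2-fold between the classes, with log2 ratios of -0.37 (-0.74 to -0.03) labelled knockout and -0.08 (-0.69 to 0.48) labelled wildtype. It was detected in 34 of 69 members labelled knockout and 13 of 26 labelled wildtype. Nppa, the atrial natriuretic peptide gene, was at -3.73 labelled knockout and -0.61 labelled wildtype.

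Within the members Vsnl1 was higher with 2 or more Shox2 UMIs than with 1 in both libraries, and Hcn4 and Smoc2 were highest with 5 or more labelled knockout and with 2 to 4 labelled wildtype. The bins used here were chosen after seeing the data, and the bin of 5 or more UMIs held 7 cells labelled wildtype. In the library labelled knockout, Vsnl1 stood at 20.9 CPM with 0 Shox2 UMIs, 50.4 CPM with 1, 65.1 CPM with 2 to 4 and 741 CPM with 5 or more. In the library labelled wildtype the same bins had 31.3, 131, 514 and 465 CPM. Hcn4 was at 10.1 CPM in both libraries with 1 Shox2 UMI, at 27.9 CPM labelled knockout and 142 CPM labelled wildtype with 2 to 4, and at 107 and 70.5 CPM with 5 or more. Smoc2 was at 10.1, 12.4 and 180 CPM over these 3 bins labelled knockout, and at 55.3, 248 and 14.1 CPM labelled wildtype. Igfbp5 was at 2123 and 2102 CPM in that highest bin. Myl2 was at 89.3 and 127 CPM there, against 1026 and 1127 CPM in members with 1 Shox2 UMI. It did not fall steadily, since with 2 to 4 it was at 1960 CPM labelled knockout and 17.7 CPM labelled wildtype.

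Across members at equal depth, the correlation of Shox2 with Vsnl1 was 0.43 over 69 cells labelled knockout and 0.38 over 26 labelled wildtype (Pearson's r on thinned counts of cells of 1 library each). With Hcn4 it was 0.24 labelled knockout and -0.0098 labelled wildtype, and with Smoc2 0.20 and -0.0059. High doublet scores were found in 10 of 19 members labelled knockout with 1 Shox2 UMI and 4 of 34 with 5 or more, and in 3 of 10 and 2 of 7 labelled wildtype. Their part in the differences between bins was not tested.

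**Figure D3:**
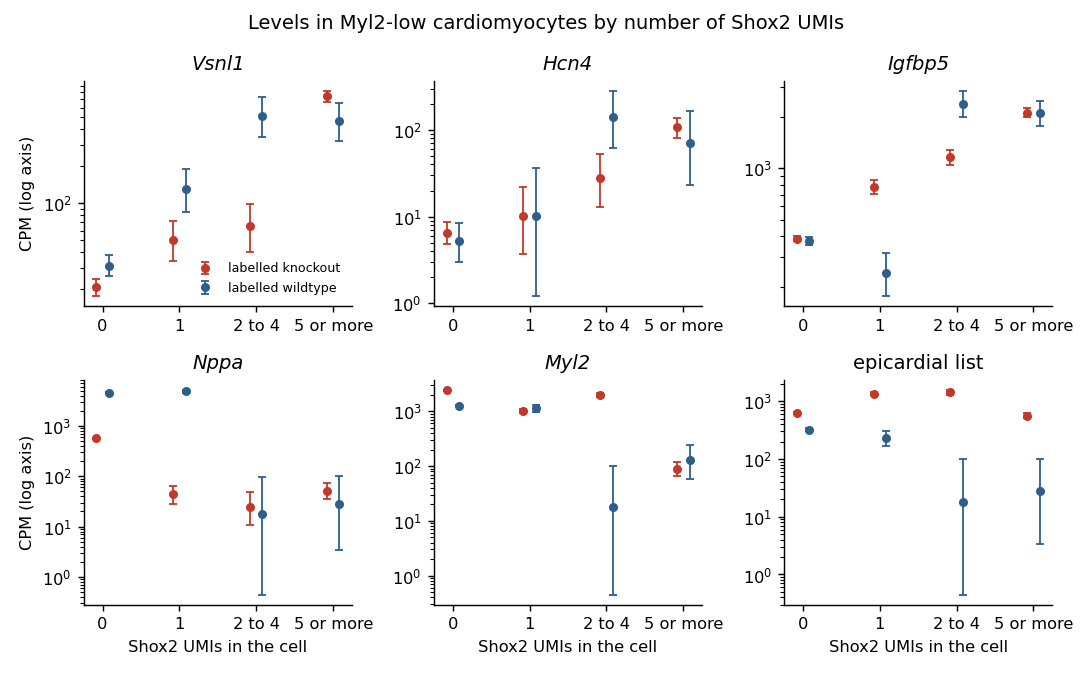
Levels in CPM (log axis) of 5 genes and of the summed epicardial marker list in Myl2-low cardiomyocytes by the number of Shox2 UMIs in the cell, with 95% Poisson intervals, labelled knockout left of labelled wildtype in each bin. Vsnl1 and Hcn4 are highest from 2 UMIs on in the library labelled wildtype and at 5 or more labelled knockout, and Nppa labelled wildtype is at 4859 CPM in cells with 1 Shox2 UMI and 28.2 CPM with 5 or more.

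The libraries were then compared within Shox2-positive cells. Summed over all members, Vsnl1, Hcn4 and Smoc2 were at close levels in both, but Vsnl1 and Smoc2 were apart in each bin of Shox2 UMIs. Other genes of the node lists differed by over 2-fold in either direction. The working-muscle list was lower in the library labelled knockout, and genes of the epicardium were higher. Among 8959 genes with at least 20 UMIs, 736 were at least 2-fold higher (8.22%) and 595 at least 2-fold lower (6.64%) in the library labelled knockout, and the median gene was at 0.00. In Shox2-negative cells 575 of 12868 genes were higher (4.47%) and 884 lower (6.87%), and in Myl2-high cells 421 of 12463 were higher (3.38%) and 850 lower (6.82%). The classes differ in depth, which also moves such counts.

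The targeted gene did not separate the libraries. Bub1b (chromosome 2, 118598211 to 118641591) had 48 UMIs in members labelled knockout and 9 labelled wildtype, or 32.5 and 27.6 CPM, a log2 ratio of 0.23 (-0.81 to 1.45). It was at 34.9 and 40.5 CPM in Shox2-negative cells. The labels do not say which part of the gene is floxed, and 3' counts outside that part cannot check the deletion, so the libraries are called by their labels. Cdkn1a, a p53 target, was at 12.2 and 6.13 CPM in members (18 and 2 UMIs), with an interval that held 0. Of 18 measured p53 targets, 1 was 2-fold higher and 0 lower, with a median of -0.13. Of 23 spindle checkpoint and kinetochore genes, 2 were 2-fold higher and 0 lower, with a median of 0.27, among them Bub1 at 44.0 and 21.5 CPM (1.03, -0.09 to 2.41).

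Summed over all members, the 3 node markers checked above differed little between the libraries. Log2 ratios were 0.22 for Vsnl1 (-0.11 to 0.57), 0.14 for Hcn4 (-0.67 to 1.05) and -0.09 for Smoc2 (-0.71 to 0.59). Shox2 itself, which chose the cells, was at 315 and 328 CPM. Tbx3 had 46.7 CPM in members labelled knockout and 42.9 CPM labelled wildtype (0.12, -0.72 to 1.07), and Isl1 27.7 and 30.7 CPM (-0.14, -1.17 to 1.02). These intervals hold 0 but also differences of up to about 2-fold for Hcn4, Tbx3 and Isl1. None of the 9 measured pacemaker channels and exchangers passed 2-fold in either direction, with a median of -0.10. The furthest below 0 was Cacna1d at 335 and 540 CPM (-0.69, -0.94 to -0.43), which in Shox2-negative cells was at 0.55. By bin of Shox2 UMIs (1, 2 to 4, 5 or more), Cacna1d was at -0.38, -3.07 and -0.28. In the same bins Hcn4 was at 0.00, -2.35 and 0.60, and for both only the interval of 2 to 4 left out 0. Vsnl1 was at -1.38, -2.98 and 0.67 and Smoc2 at -2.46, -4.32 and 3.68, each with an interval that left out 0.

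Of the 9 pacemaker factors, 2 were at least 2-fold higher in members labelled knockout. Bmp4 stood at 179 and 73.6 CPM (1.28, 0.68 to 1.95) and Tbx18 at 223 and 27.6 CPM (3.01, 2.07 to 4.15). Tbx18 also stands on the list of epicardial markers, which was higher as a whole. Bmp4 was at 58.8 and 25.2 CPM with 1 Shox2 UMI (1.22, -0.13 to 2.93). With 2 to 4 it was lower in the library labelled knockout, at 77.5 and 266 CPM (-1.78, -2.76 to -0.75). In members with 5 or more Shox2 UMIs, Bmp4 was at 366 and 56.4 CPM (2.70), from 205 and 4 UMIs. Tbx18 had 100 UMIs labelled knockout and 0 labelled wildtype there, at least 2.08 higher on the log2 scale against a floor of 3 UMIs over the class. Smoc2, which was at -0.09 over all members, had 101 UMIs labelled knockout and 1 labelled wildtype in this bin (3.68, 1.17 to 8.99). Tbx5, which activates Shox2 and Bmp4 in the inflow, was lower at 95.4 and 166 CPM (-0.80, -1.26 to -0.32). Of the 14 measured node-enriched genes, 1 was 2-fold higher (Tbx18) and 3 were 2-fold lower. These 3 were the muscarinic receptor gene Chrm2 (12.2 and 82.8 CPM, -2.77), the phosphodiesterase gene Pde1a (-2.36) and the guidance ligand gene Slit2 (-1.59). All UMIs of Pde1a (35) and Slit2 (93) in members labelled wildtype came from members with 1 Shox2 UMI. With at least 2 Shox2 UMIs their log2 ratios were 0.21 and 1.77, and Slit2 was also at 0.59 after thinning and 2.42 without members holding 3 or more epicardial markers. The list's median was 0.17. Shisa6, among the highest genes of the members in both libraries, was at 59.5 and 199 CPM (-1.74, -2.22 to -1.26).

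Working-muscle genes were mostly lower in members labelled knockout, and their list had the lowest median of the lists measured. Of 10 measured genes of this list, 7 were at least 2-fold lower in members labelled knockout, with a median of -1.63, against 7 of 13 and a median of -1.15 in Shox2-negative cells. With at least 2 Shox2 UMIs the median in members was -0.62. Nppa had 63 UMIs in 17 members labelled knockout and 969 UMIs in 9 members labelled wildtype, or 42.6 and 2971 CPM (-6.12, -6.51 to -5.75). Of the 969 UMIs, 966 came from the 10 members labelled wildtype with 1 Shox2 UMI. With 5 or more Shox2 UMIs, Nppa was at 51.8 CPM labelled knockout and 28.2 CPM labelled wildtype, from 29 and 2 UMIs, and the interval of the ratio held 0 (0.88, -1.11 to 3.99). The connexin gene Gja5 was at 4.74 and 46.0 CPM (-3.28), the G-protein-gated potassium channel gene Kcnj3 at 46.7 and 196 CPM (-2.07) and the calcium pump regulator Sln at 31.1 and 163 CPM (-2.38). Gja5 had 3 and 12 UMIs with 1 Shox2 UMI, 1 and 1 with 2 to 4, and 3 and 2 with 5 or more. Only its interval with 1 Shox2 UMI left out 0. Of 9 measured atrial markers, 5 were 2-fold lower and 0 higher (median -1.04), against 9 of 10 in Shox2-negative cells (-1.52). With 5 or more Shox2 UMIs Kcnj3 and Sln kept their direction, at -1.17 and -1.60. With 2 to 4, Kcnj3 was at -3.59 but Sln at 0.07 (-2.97 to 5.59), from 6 and 1 UMIs of Sln.

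Epicardial genes were mostly higher, and their list had the highest median of the lists measured. Of 10 measured epicardial markers, 8 were at least 2-fold higher in members labelled knockout and 10 lay above 0, with a median of 2.99. The list summed to 1079 CPM labelled knockout and 150 CPM labelled wildtype, where Lrp2 and Msln were at 0. In Shox2-negative cells the median was 0.96, with 630 and 319 CPM, and in Myl2-high cells -1.07. Among the 12 highest genes, Wt1, Upk3b, Upk1b, Tbx18, Aldh1a2 and Podxl are known from the epicardium, the mesothelial cover of the heart. Upk3b had 265 UMIs in 28 members labelled knockout and 2 UMIs in 1 member labelled wildtype (4.87, 3.00 to 7.92), and Wt1 206 UMIs in 25 members and 2 UMIs in 2 (4.51, 2.64 to 7.56).

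At least 3 epicardial markers were detected in 26 of 69 members labelled knockout and 3 of 26 labelled wildtype, and in 119 of 304 and 51 of 230 Shox2-negative cells. Per member the list ran from 0 to 44.7 UMIs per 10000 labelled knockout and from 0 to 6.51 labelled wildtype. Without such members, an alternative chosen after seeing the data, 43 members labelled knockout remained, and 7 of the 12 highest genes were still at least 2-fold higher. Upk3b, Wt1, Upk1b, Prkcb and Aldh1a2 were not. In members with 5 or more Shox2 UMIs the list summed to 566 CPM labelled knockout and 28.2 CPM labelled wildtype. Free RNA, read from barcodes of at most 100 UMIs, held Upk3b at 148 CPM labelled knockout and 62.1 CPM labelled wildtype. The part of epicardial cells or their RNA in the barcodes was not tested.

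The other genes of the 12 highest were Wnt2, Mt1, Prkcb, Fstl4, S100a10 and Rspo3. The ligand gene Wnt2 had 204 UMIs in 43 members labelled knockout and 2 UMIs in 2 members labelled wildtype (4.49, 2.62 to 7.55), and in cells with 5 or more Shox2 UMIs it was at 304 and 28.2 CPM (3.43). The metallothionein gene Mt1 had 195 and 3 UMIs (3.84, 2.27 to 6.13), was under 2-fold once free RNA was subtracted, and stood at 846 CPM in free RNA labelled knockout against 50.6 CPM labelled wildtype. Rspo3, a Wnt agonist, was at 100.1 and 18.4 CPM (2.44) and was as far apart in Shox2-negative cells (2.34). The cell-cycle inhibitor Cdkn1c was at 1692 and 506 CPM (1.74, 1.51 to 1.98) and smooth-muscle actin Acta2 at 1930 and 693 CPM (1.48, 1.28 to 1.68). With 5 or more Shox2 UMIs they were at 1.89 and 2.15. Cdkn1c was at 1.97 with 1 Shox2 UMI and 1.38 with 2 to 4, but Acta2 was under 2-fold there, at 0.57 and 0.14 (-0.22 to 0.52).

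The 12 lowest genes were, beside Nppa, Galntl6 (-4.90), Postn (-3.77), Negr1 (-3.67), Mecom (-3.49), Mgp (-3.16), Fgf12 (-3.11), Pcdh9 (-2.51), Thsd7b (-2.45), Pde7b (-2.43), Igf1 (-2.35) and Col3a1 (-2.22). Postn and Col3a1 encode matrix proteins and Mgp a matrix protein that limits calcification. Galntl6, of a family of sugar transferases, had 14 UMIs in 8 members labelled knockout and 92 UMIs in 10 members labelled wildtype. Mecom, a zinc finger transcription factor, had 52 UMIs in 14 members and 129 UMIs in 9, and Negr1, a neuronal adhesion protein, 31 UMIs in 12 members and 87 UMIs in 12. With 5 or more Shox2 UMIs these 3 were still lower, at -3.79, -5.75 and -5.27. Col3a1 was at 73.2 and 70.5 CPM in that bin. With at least 2 Shox2 UMIs, Nppa, Postn, Fgf12, Pcdh9 and Col3a1 were no longer 2-fold lower. Fgf12, a modulator of sodium channels, had 125 of its 126 UMIs labelled wildtype in members with 1 Shox2 UMI. The list of mesenchymal markers, which itself holds Postn and Col3a1, summed to 1260 CPM labelled knockout and 2309 CPM labelled wildtype. Of its 10 markers, 4 were at least 2-fold lower (median -0.63), Postn and Col3a1 among them, and none was at 0 in either library. Per member the list ran from 0 to 34.0 UMIs per 10000 labelled knockout and from 0 to 116 labelled wildtype. Its part in the result was not tested.

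**Figure D4:**
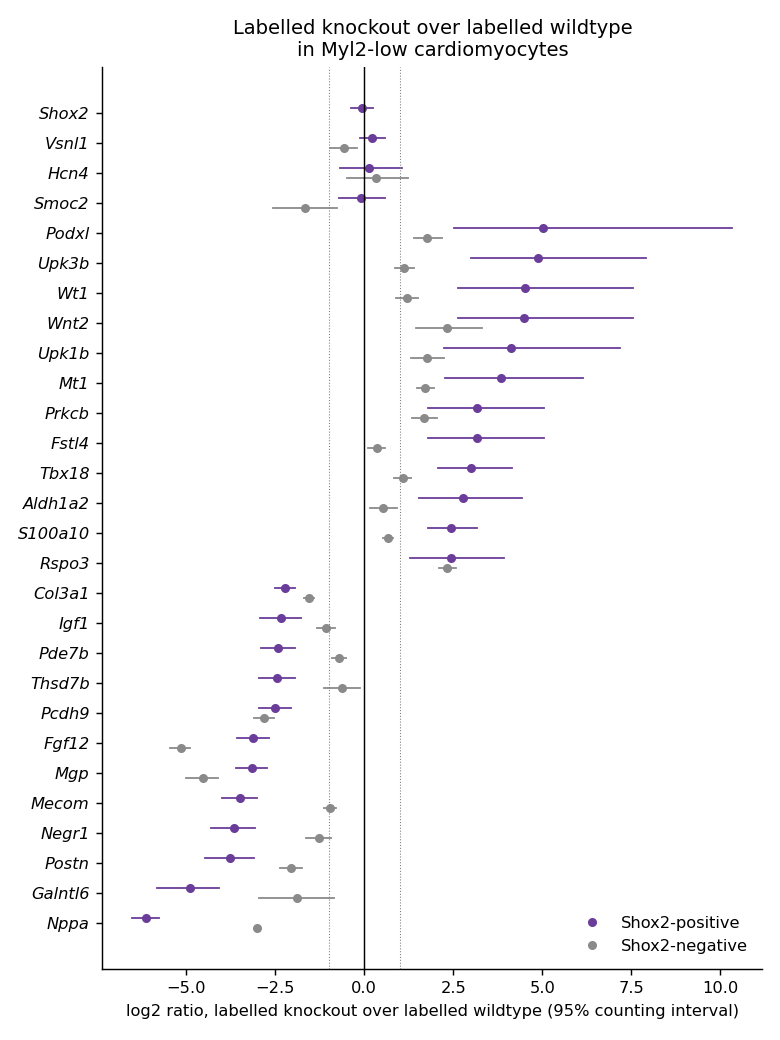
Log2 ratio of the library labelled knockout over the library labelled wildtype for Shox2, 3 node markers and the 12 highest and 12 lowest genes, with 95% counting intervals, Shox2-positive above Shox2-negative cells; dotted lines mark 2-fold and Shox2 has no value in Shox2-negative cells. Summed over all Shox2-positive cells, Vsnl1, Hcn4 and Smoc2 lie near 0, Podxl is at 5.03 and Nppa at -6.12.

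Other gene groups are given by their counts. Of 12 measured targets of Bmp signalling, 5 were 2-fold higher and 0 lower (median 0.53), among them Id1 at 196 and 73.6 CPM (1.41). Shox2-negative and Myl2-high cells had medians of 0.93 and 1.17 for the same list. Of 16 hypoxia genes, 3 were 2-fold higher and 0 lower (median 0.75), and Shox2-negative cells had a median of 0.52 while Myl2-high cells had -0.38. Of 29 genes of oxidative phosphorylation, 0 passed 2-fold and 24 lay below 0 (median -0.32). Of 15 genes of the calcium store, 3 were 2-fold lower (median -0.56), among them Casq2, the calcium buffer of the store, at 21.7 and 85.9 CPM. Of 25 extracellular matrix genes, 7 were 2-fold lower and 1 higher (median -0.36). Of 6 measured Wnt targets, 3 were 2-fold higher and 1 lower (median 1.07), against a median of 0.56 in Shox2-negative cells. The median of G2/M genes was 0.06 and that of S-phase genes 0.27.

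**Figure D5:**
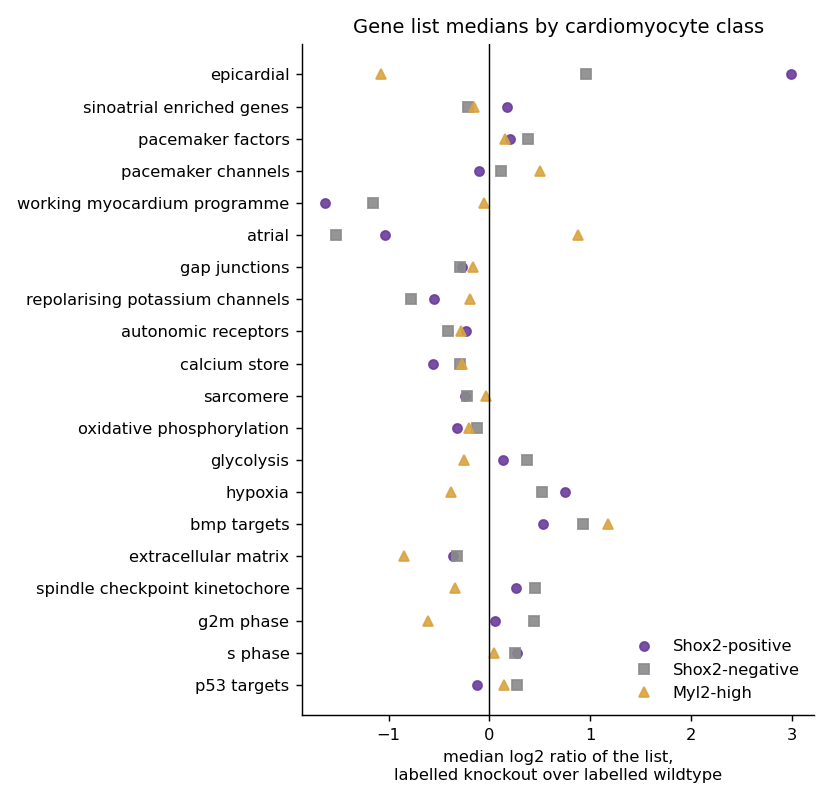
Median log2 ratio of the library labelled knockout over the library labelled wildtype for 20 gene lists in Shox2-positive, Shox2-negative and Myl2-high cardiomyocytes. In Shox2-positive cells the epicardial list lies at 2.99 and the working myocardium list at -1.63, and the node lists lie between -0.10 and 0.20.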

How the data were processed

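The deposited matrices hold UMI counts per gene and barcode, not normalized, with 32285 genes in each. Per the submitters' processing notes, the authors used Cell Ranger 7.1.0 and build mm10; no cell filter of theirs is stated in the labels. The members, gene lists and comparisons were chosen with earlier results of these data known.

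UMI sums of each class were expressed as CPM, and log2 ratios were taken (numpy 2.4.6, scipy 1.17.1) among genes with at least 20 UMIs; called means at least 2-fold. A side at 0 was set to 3 UMIs of the class. Intervals are at 95%. Named genes were the listed node, channel, connexin and working-muscle genes, Bub1b, the 4 members furthest from 0 of each other list, and the 12 highest and 12 lowest of each comparison. These needed 50 CPM (Shox2-positive over Shox2-negative), or 100 UMIs and 100 CPM (knockout over wildtype); mitochondrial, ribosomal, hemoglobin, sex-linked and unnamed genes were left out of them, and a few named genes are not reported here. Doublets were scored with Scrublet in scanpy 1.11.5, taking the highest scores at 0.8% per 1000 barcodes (298 labelled knockout, 451 labelled wildtype). They were kept in the values reported. The automatic threshold marked 261 and 2 barcodes, so it did not work in the library labelled wildtype. Genes were placed with GENCODE vM21. Ratios were tested on simulated data. Alternatives covered the thresholds of the rule, depth, doublets, free RNA, scaling and the gene minimum.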

Additional observations from a re-analysis of the deposited data

Results flagged for a closer look

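Some genes had ratios of the library labelled knockout over the library labelled wildtype in opposite directions in Shox2-positive and Shox2-negative cells, with counting intervals that left out 0 on both sides. The difference was not tested across libraries. The channel gene Cacna1d was at -0.69 in Shox2-positive and 0.55 in Shox2-negative cells. Within members it was at -3.07 with 2 to 4 Shox2 UMIs, and the intervals with 1 (-0.38) and with 5 or more (-0.28) held 0. The exonuclease gene Exo1 was at -1.73 and 0.62, from 15 UMIs labelled knockout and 11 labelled wildtype in members. The G-protein gene Gnai2 was at 0.57 and -0.18, and Rgs6 at 0.24 and -0.20. Within members, Rgs6 was above 0 only with 1 Shox2 UMI (0.94), and was at -0.79 with 2 to 4 and -0.30 with 5 or more. The embryonic globin gene Hbb-y was at 3.82 and -1.11, and 1 member gave 25.3% of its UMIs labelled knockout. The endothelial receptor gene Kdr was at 1.75 and -0.74.

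The connexin gene Gjc1 had ratios of Shox2-positive over Shox2-negative cells in opposite directions in the libraries, also not tested, at -0.26 in the library labelled knockout and 0.85 in the library labelled wildtype.

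Shox2 was also found outside the cardiomyocytes. Among kept barcodes below the Ttn minimum, 6.19% labelled knockout (256 of 4136) and 4.25% labelled wildtype (194 of 4562) had a Shox2 UMI, above the 1.09% and 0.757% of endothelial barcodes.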

How the results depend on the processing

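No paired analysis was possible because each group has 1 library. Among counts, shares and the medians of the epicardial, working-muscle and node-enriched lists, 112 of 160 values stayed near the reported one under the alternatives, 48 moved and 0 reversed. The number of members became 34 (labelled knockout) with at least 20 Ttn UMIs per 10000, and 16 (labelled wildtype) with at least 2 Shox2 UMIs. It was 38 and 16 with the rule applied to thinned cells. Among alternatives chosen after seeing the data, it was 34 and 7 with at least 5 Shox2 UMIs, and 43 labelled knockout with fewer than 3 epicardial markers. The share of Myl2-low cardiomyocytes was 13.4% and 6.25% with at least 2 Shox2 UMIs, 10.1% and 5.88% after thinning, and 9.12% and 2.73% with at least 5 Shox2 UMIs. Labelled knockout alone it moved to 13.6% with 20 Ttn UMIs per 10000, 24.6% with under 30 Myl2 UMIs per 10000, 13.9% with a Vsnl1 or Hcn4 UMI required and 11.5% with fewer than 3 epicardial markers. In each of these settings the share labelled knockout was above the share labelled wildtype.

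Genes at least 2-fold higher in Shox2-positive cells of both libraries numbered 145 with at least 2 Shox2 UMIs, 62 with a mitochondrial limit of 10%, 154 without high doublet scores, 49 after thinning, 42 with a minimum of 50 UMIs per gene, 382 with no minimum beyond 1 UMI on each side and 161 with at least 5 Shox2 UMIs. Lower genes numbered 85 with 20 Ttn UMIs per 10000, 80 after thinning, 95 with the mean over cells, 25 with the minimum of 50 UMIs, 76 with at least 5 Shox2 UMIs and 224 with fewer than 3 epicardial markers. Between the libraries, higher genes numbered 473 with 20 Ttn UMIs per 10000, 255 after thinning, 306 with the minimum of 50 UMIs and 356 with fewer than 3 epicardial markers. Lower genes numbered 345, 167, 231 and 388 under the same settings, 2144 with no minimum and 393 with at least 5 Shox2 UMIs. Most of these settings also change how many genes are measured, which is not given here. The counts therefore do not compare as shares, and a smaller count does not mean a smaller difference.

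The median of the working-muscle list was -0.62 with at least 2 Shox2 UMIs, -1.02 with the mitochondrial limit, -2.38 with no minimum, -1.17 with at least 5 Shox2 UMIs and -1.15 with at most 1% hemoglobin. The epicardial median was 0.96 with at least 5 Shox2 UMIs. The node-enriched median was 0.65 with 20 Ttn UMIs per 10000 and 0.74 with fewer than 3 epicardial markers. The erythroid list, at a median of 1.38 over all members, reversed to -0.97 with 20 Ttn UMIs per 10000, -3.75 without high doublet scores, -0.69 after thinning, -2.15 with free RNA subtracted, -0.65 with a Vsnl1 or Hcn4 UMI required, -4.76 with fewer than 3 epicardial markers and -2.54 with at most 1% hemoglobin.

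With at least 2 Shox2 UMIs, ratios of knockout over wildtype reversed to 1.05 for Col3a1, 3.14 for Fgf12, 0.83 for Nppa, 0.21 for Pde1a, 1.77 for Slit2 and 0.18 for Smpx. With at least 5 they were 0.054 for Col3a1, 1.21 for Fgf12, 0.88 for Nppa and 0.86 for Slit2. Fgf12 and Slit2 had 0 UMIs labelled wildtype in cells with at least 5, so these values rest on the floor of 3 UMIs. Slit2 was also at 0.59 after thinning and 2.42 with fewer than 3 epicardial markers. Bmp10, at 3 and 4 UMIs, was at 0.18 for Shox2-positive over Shox2-negative cells labelled knockout with the mean over cells. The cause of these changes was not tested. Between the libraries the 12 highest genes stayed 2-fold higher under the planned settings, except Wt1 and Aldh1a2 after thinning and Mt1 with free RNA subtracted. Among the 12 highest genes of Shox2-positive cells, Csmd1, Flrt3 and Trabd2b fell under 2-fold with the mitochondrial limit, Csmd1 and Flrt3 with 20 Ttn UMIs per 10000, and Fbxo32 after thinning.

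Depth limits the rest. Members labelled wildtype summed to 326108 UMIs, and many of its genes rest on a few UMIs of a few cells.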

Other observations

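The Shox2-positive barcodes below the Ttn minimum shared some genes with the members. Relative to the other barcodes below the minimum, Vsnl1 was at 55.4 against 3.18 CPM labelled knockout and 21.9 against 5.02 CPM labelled wildtype, log2 ratios of 4.12 and 2.13. Rgs6 had 1.54 and 1.502, Cacna1d 2.53 and 1.61 and Thsd7b 1.49 and 1.88. Hcn4 was at 3.21 (2.47 to 3.94) labelled knockout and 0.21 (-1.27 to 1.39) labelled wildtype, from 29 and 6 UMIs. Isl1 was at 3.78 and 0.02. Endothelial genes were lower in both, with Cdh5 at -2.85 and -2.61 and Pecam1 at -2.31 and -2.21. The cartilage and mesenchyme factor Sox9 was at 0.70 and 0.76. These genes were chosen after their values were seen.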
